A study of Mus musculus with 16 samples.

Results

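The genes that carry fatty acids into mitochondria and peroxisomes and oxidize them there were examined in mouse liver RNA-seq. The set held 34 genes, taken by gene symbol from a count table of 52143 genes, and it was divided by role into 7 genes of activation and carriers, 10 of the mitochondrial chain-length steps, 4 auxiliary enzymes of unsaturated chains, 3 of electron transfer and 10 of the peroxisomal branch. All 34 passed the filter on low counts that left 11324 genes for testing. Livers came from male C57BL6/J mice that entered the study at 6 weeks of age and ate chow or a high-fat diet (HFD, 60% fat) for 12 weeks. Every 2 weeks the mice were injected with saline or with 3 mg/kg of a liver-directed siRNA against *Fgfr4*, which gave 4 groups of 4 libraries: Chow and HFD with saline, and Chow/FGFR4 KD and HFD/FGFR4 KD with siRNA (KD, knockdown). The siRNA carries N-acetylgalactosamine, a sugar that hepatocytes take up. The control mice received no other siRNA, so an effect of siRNA injection as such and the loss of FGFR4 cannot be told apart.

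Liver oxidizes fatty acids in a cycle that shortens the acyl chain, and each turn passes through a dehydrogenase, a hydratase, a second dehydrogenase and a thiolase. Long chains must be activated to CoA esters and handed to carnitine before they can enter mitochondria, and the electrons removed there reach the respiratory chain through the electron transfer flavoprotein. Peroxisomes run a similar cycle on very long and branched chains and pass the shortened products on to mitochondria, and the nuclear receptor PPARα is known as an activator of many genes of both pathways in liver.

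Libraries held between 3445949 and 5976449 counts in total, and counts for single genes of the set ran from 30 for *Acot8* to 25141 for *Scp2*. Levels are given as CPM, counts scaled to library size with TMM factors. Calls used limma-voom at the study's threshold, an unadjusted p under 0.05 together with an adjusted p (Benjamini-Hochberg) under 0.25. *Fgfr4* lay between 21.8 and 36.3 CPM in the 8 saline libraries and between 2.43 and 6.17 CPM in the 8 KD libraries. The hepatocyte marker genes were detected in every library, with a summed level from 59459 to 81498 CPM, whereas skeletal muscle markers stayed at or under 3 counts. HFD/FGFR4 KD 1 stood apart from its group on the leading principal component, with a score of -6.33 inside the range of the chow libraries, while its 3 companions lay between 16.7 and 20.6. The HFD libraries were also split on this component, with HFD 1 and HFD 3 at 25.7 and 30.4 and HFD 2 and HFD 4 at 5.97 and 9.64. The transcript Gm42418 took 22.3% of the counts in HFD/FGFR4 KD 1 and 13.7% to 16.2% in its companions. It took 13.4% to 22.7% in Chow, 14.8% to 20.6% in Chow/FGFR4 KD and 11.1% to 15.6% in HFD. The TMM factors of Chow (0.836 to 1.03) and HFD (1.05 to 1.17) did not overlap, so the comparison of these groups depends on the scaling. For calls that were lost when 1 library was left out, the libraries or the number of fits are given. In bulk liver RNA, fewer cells of a type and less RNA per cell cannot be told apart.

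Promoter sequences from RefSeq (GRCm38.p6, from 250 bases before to 50 after a gene's start) were found for 30 of the 34 genes. *Crat*, *Acaa2*, *Decr1* and *Hsd17b4* had none. 3 stretches are shown, because *Hadhb* gave the smallest p of the set with KD on HFD and lies head to head with *Hadha*, and because *Acaa1a* and *Acaa1b* share transcript sequence. *Hadha* and *Hadhb* encode the α and β subunits of the mitochondrial trifunctional protein and lie on chromosome 5, *Hadha* on the minus strand with its outermost start in the GENCODE annotation at 30155162 and *Hadhb* on the plus strand from 30155248. The RefSeq starts, from which the windows are measured, lie farther apart, by 273 bases. The 85 bases between the GENCODE starts, chr5:30155163-30155247 on the plus strand, are printed with the letters GGGCGG (a GC box) in capitals. The *Acaa1a* stretch is chr9:119341174-119341293 on the plus strand and the *Acaa1b* stretch chr9:119157094-119157213 on the minus strand. Each holds the 120 bases before the gene's start, with CCAAT or its reverse complement in capitals.
Hadha-Hadhb: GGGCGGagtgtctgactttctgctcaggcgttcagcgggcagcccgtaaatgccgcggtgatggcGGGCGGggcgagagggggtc
Acaa1a: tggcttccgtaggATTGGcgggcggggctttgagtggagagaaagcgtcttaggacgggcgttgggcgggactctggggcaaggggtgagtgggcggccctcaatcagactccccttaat
Acaa1b: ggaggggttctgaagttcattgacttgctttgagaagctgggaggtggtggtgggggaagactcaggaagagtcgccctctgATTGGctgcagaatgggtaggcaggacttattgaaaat
The stretch between *Hadha* and *Hadhb* held 2 GC boxes. The full promoter windows of *Acaa1a* and *Acaa1b* were identical at 51.8% of aligned positions, gaps counted as differences.

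Short letter patterns were searched in these windows on both strands. A gene was counted once if any of its windows held the pattern, and some genes, such as *Abcd3* and *Acsl1*, had more than 1 window. GGGCGG was found for 24 of the 30 genes (80.0%), against 38.2% of 27025 genes. CCAAT was present for 16 genes (53.3%, against 41.1% of all). TATAAA was present in 0 (against 15.7%). AGGTCA, a half-site whose repeats nuclear receptors of the PPAR and HNF4 kind recognize, was found in the windows of *Acadm*, *Acadvl*, *Cpt1a*, *Echs1* and *Scp2*, which is 16.7% of the 30 genes against 18.1% of all. The 27025 genes were not limited to those tested in liver, so the shares do not set these genes against other liver genes. These are matches of letters in short windows and carry no information on binding.

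Per kilobase of the longest coding transcript, mean levels in Chow spanned a wide range. *Scp2*, which encodes a peroxisomal thiolase and a sterol carrier protein, was highest at 1364 CPM per kb, followed by *Acaa1b* (a peroxisomal thiolase) at 556, *Acaa2* (the mitochondrial thiolase) at 412 and *Acsl1* (the main long-chain acyl-CoA synthetase of liver) at 329 CPM per kb. *Crat*, carnitine acetyltransferase, was at 10.3, *Acot8*, a peroxisomal thioesterase, at 8.94 and *Slc22a5*, the carnitine transporter of the plasma membrane, at 8.84 CPM per kb. A single length per gene was used, so these values describe the order of magnitude only.

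On HFD without KD, 8 of the 10 genes of the mitochondrial chain-length steps and 3 of the 4 auxiliary enzymes rose, and 0 of the 3 electron transfer genes were called by limma-voom. In HFD against Chow, 14 of the 34 genes rose and 2 fell, where 13.3% of all 11324 genes were called higher and 12.7% lower. The stricter adjusted p under 0.05 left 11 that rose (4.55% of all genes) and 1 that fell (4.65%). The median log2 change of the set was 0.19, against 0.01 over all genes tested. The 4 libraries of HFD lay above all 4 of Chow for 13 genes (8.33% of all genes) and below them for 2 (7.76%). The map of levels by library shows the rise as a block in the mitochondrial and auxiliary genes of the 4 HFD libraries.

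**Figure D1:**
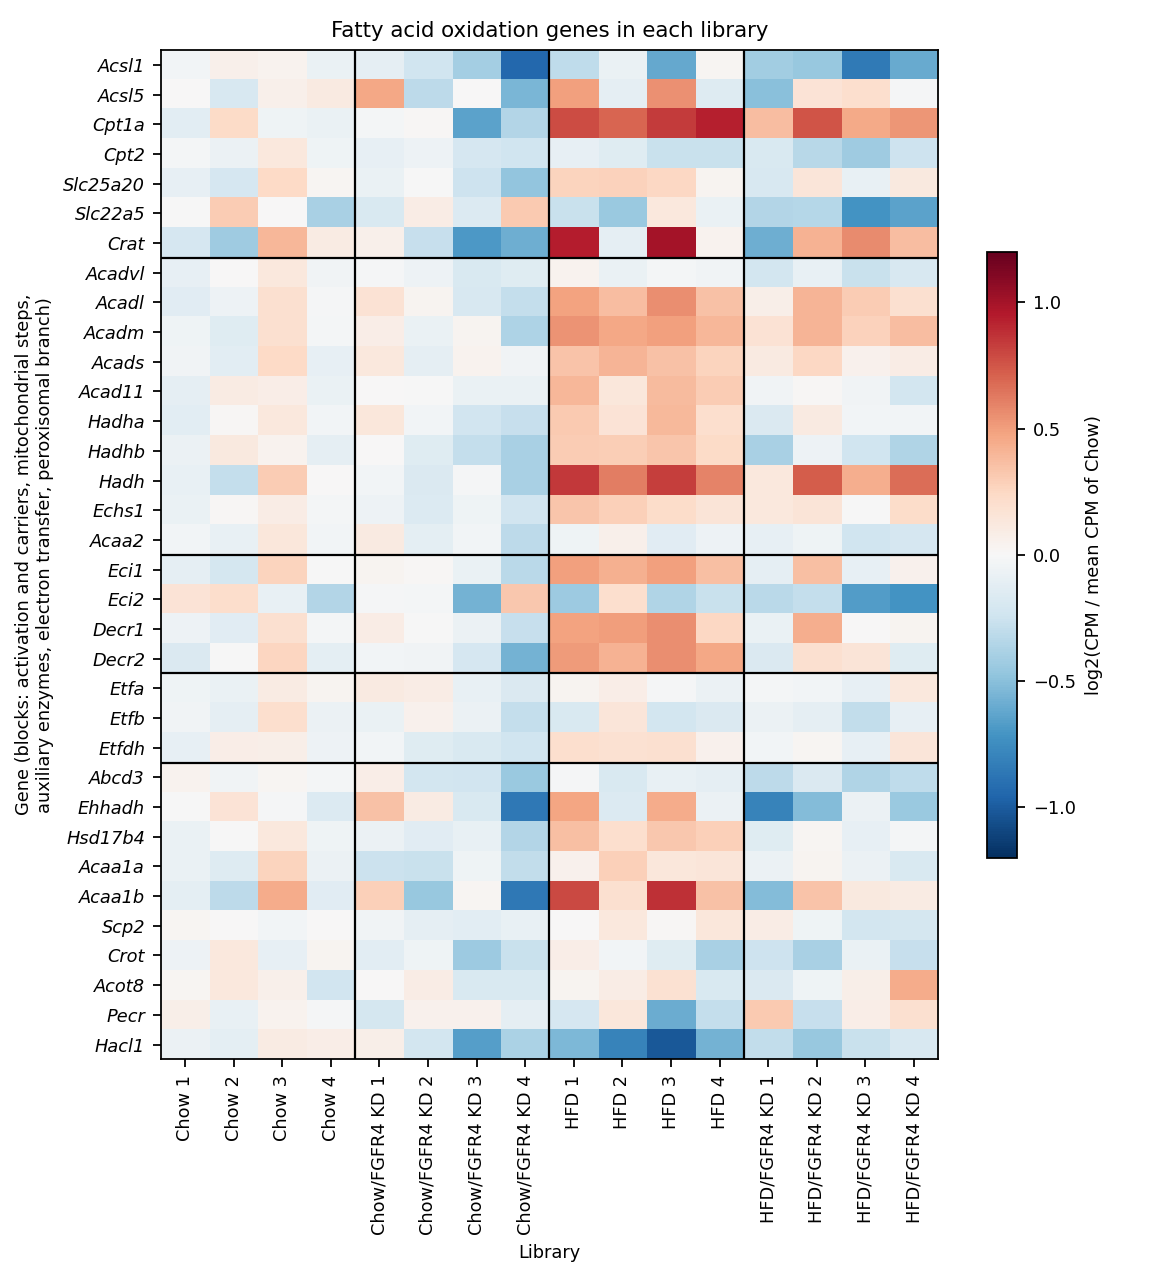
Heat map of log2(CPM / mean CPM of Chow) for the 34 genes (rows, in blocks by role) in the 16 libraries (columns, 4 per group). The HFD libraries are mostly above Chow in the mitochondrial and auxiliary blocks, *Hacl1* is below Chow in all 4 HFD libraries, and the HFD/FGFR4 KD libraries lie closer to Chow, with *Cpt1a* and *Hadh* still above it.

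Among activation and carrier genes, the rise on HFD was limited to *Cpt1a*, which encodes the outer-membrane carnitine palmitoyltransferase that controls entry of long chains into mitochondria. *Cpt1a* stood at 259, 333, 274 and 268 CPM in Chow, 279, 286, 181 and 222 in Chow/FGFR4 KD, 489, 462, 509 and 543 in HFD, and 367, 478, 388 and 409 in HFD/FGFR4 KD. All HFD libraries were higher than all Chow libraries, and the increase was 1.77-fold (log2 change 0.82, SE 0.13, limma-voom adjusted p 0.00174), the largest of the set in this comparison. *Cpt2*, the inner-membrane transferase that returns the chain to CoA, went from 134 ± 8.51 CPM in Chow to 117 ± 7.08 CPM in HFD (mean ± SD, n = 4) and fell by 0.19 on the log2 scale (95% interval -0.36 to -0.03, adjusted p 0.129). The *Cpt2* call was lost without Chow 3, HFD 3 or HFD 4 (log2 changes from -0.17 to -0.15), and the change turned to 0.09 with scaling by library totals alone, where the median over all genes was itself 0.29. *Slc25a20*, which exchanges acylcarnitine for carnitine across the inner membrane, was at 92.5 ± 12.4 CPM in Chow and 107 ± 8.25 CPM in HFD and was not called (95% interval of the log2 change -0.03 to 0.45). *Acsl1*, *Acsl5*, *Slc22a5* and *Crat* were not called either, with log2 changes from -0.24 (*Acsl1*) to 0.50 (*Crat*, 95% interval -0.10 to 1.10).

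The acyl-CoA dehydrogenases, which begin each turn of the cycle and divide the chains by length, did not change alike. *Acadvl* acts on very long chains and stood at 294, 315, 342 and 305 CPM in Chow, 310.1, 300.2, 276 and 283 in Chow/FGFR4 KD, 324, 297, 309 and 304 in HFD, and 270.1, 295, 262 and 275 in HFD/FGFR4 KD. The HFD and Chow libraries overlapped, and the log2 change was -0.02 (95% interval -0.17 to 0.12, adjusted p 0.860). *Acadl*, for long chains, stood at 119.7, 126, 150.3 and 130.0 CPM in Chow, 148, 134, 115 and 108 in Chow/FGFR4 KD, 184, 171, 193 and 168 in HFD, and 138, 174, 162 and 150.3 in HFD/FGFR4 KD. Every HFD library was above every Chow library (log2 change 0.45, SE 0.11, adjusted p 0.0148). *Acadm*, for medium chains, stood at 274, 257, 325 and 279 CPM in Chow, 299.6, 269, 290.3 and 220.3 in Chow/FGFR4 KD, 413, 393, 399.5 and 375 in HFD, and 321, 376, 343 and 367 in HFD/FGFR4 KD. Its HFD libraries were again above all Chow libraries, with a log2 change of 0.48 (SE 0.10, adjusted p 0.00705). *Acads*, for short chains, stood at 108, 101, 131 and 103 CPM in Chow, 121, 103, 114 and 108 in Chow/FGFR4 KD, 141, 148, 142 and 133 in HFD, and 119.7, 131, 115 and 118 in HFD/FGFR4 KD. It rose by 0.35 on the log2 scale (SE 0.09, adjusted p 0.0173), with no overlap. *Acad11*, which acts on long chains and on hydroxylated acids, was listed with the mitochondrial steps, and the location of its product was not measured. It stood at 284, 326, 322 and 288 CPM in Chow, 306, 305, 288 and 289 in Chow/FGFR4 KD, 403, 336, 397 and 378 in HFD, and 297, 307, 296 and 263 in HFD/FGFR4 KD. The HFD libraries of *Acad11* did not overlap those of Chow, and the log2 change was 0.31 (SE 0.08, adjusted p 0.0219).

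The later steps of the mitochondrial cycle rose as well, except for the thiolase *Acaa2*. *Hadh*, the dehydrogenase for medium and short hydroxyacyl-CoA, stood at 234, 206, 309 and 251 CPM in Chow, 245, 221, 247 and 191 in Chow/FGFR4 KD, 449, 384, 445 and 377 in HFD, and 272, 414, 339 and 397 in HFD/FGFR4 KD. It was higher in each HFD library than in any Chow library, by 1.67-fold (log2 change 0.74, SE 0.14, adjusted p 0.00465). *Echs1*, the short-chain enoyl-CoA hydratase, stood at 160.3, 171, 181 and 166 CPM in Chow, 162, 151, 164 and 145 in Chow/FGFR4 KD, 213, 207, 197 and 189 in HFD, and 185, 188, 169 and 198 in HFD/FGFR4 KD. Its groups did not overlap and the log2 change was 0.25 (SE 0.07, adjusted p 0.0427). *Hadha* went from 297 ± 21.9 to 357 ± 25.8 CPM (log2 change 0.27, adjusted p 0.0920) and *Hadhb* from 179 ± 12.9 to 219 ± 6.55 CPM (log2 change 0.30, adjusted p 0.0542). *Acaa2* was at 625 ± 44.2 CPM in Chow and 605 ± 34.04 CPM in HFD and was not called, with a 95% interval of the log2 change from -0.23 to 0.14.

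Auxiliary enzymes let chains with unsaturated bonds enter the cycle, and 3 of the 4 rose on HFD. *Eci1*, a mitochondrial enoyl-CoA isomerase, stood at 80.2, 74.9, 104 and 86.4 CPM in Chow, 88.2, 87.6, 82.04 and 69.2 in Chow/FGFR4 KD, 122, 116, 121 and 111 in HFD, and 80.02, 111, 80.5 and 89.6 in HFD/FGFR4 KD. All HFD libraries exceeded all Chow libraries (log2 change 0.45, SE 0.12, adjusted p 0.0233). *Decr1*, the mitochondrial dienoyl-CoA reductase, stood at 137, 130.2, 163 and 140.4 CPM in Chow, 151, 143, 136 and 118 in Chow/FGFR4 KD, 199, 203, 209.9 and 169 in HFD, and 135, 193, 143 and 146 in HFD/FGFR4 KD. Its increase had the same size, 0.45 on the log2 scale (SE 0.12, adjusted p 0.0214). *Decr2*, the peroxisomal reductase of the same reaction, stood at 134, 150.0, 179.7 and 139 CPM in Chow, 147, 146, 131 and 102 in Chow/FGFR4 KD, 215, 202, 222 and 208 in HFD, and 133, 172, 168 and 136 in HFD/FGFR4 KD. It rose by 0.50 (SE 0.12, adjusted p 0.0177). *Eci2*, an isomerase found in both organelles, was at 195 ± 33.6 CPM in Chow and 170.3 ± 36.4 CPM in HFD and was not called (95% interval -0.58 to 0.18).

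None of the 3 electron transfer genes was called in any of the comparisons by limma-voom or edgeR, and 0 had an unadjusted p under 0.05 in limma-voom. DESeq2 called *Etfdh* higher on HFD against Chow (log2 change 0.16, adjusted p 0.199). *Etfa* and *Etfb* encode the subunits of the electron transfer flavoprotein, and *Etfdh* the oxidoreductase that passes its electrons to ubiquinone. On HFD against Chow their log2 changes were 0.01 for *Etfa* (95% interval -0.16 to 0.18), -0.11 for *Etfb* (-0.32 to 0.11) and 0.16 for *Etfdh* (0.00 to 0.32, unadjusted p 0.0526 in limma-voom). *Etfa* held the narrowest range of group means of these genes, from 259.7 ± 24.2 CPM in Chow/FGFR4 KD to 263 ± 12.1 CPM in HFD. Of the *Etfb* transcript words of 31 bases, 49.9% also occur in other genes. Gm45233, the gene with the most matches, had at most 1.10 CPM in any library.

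The peroxisomal branch was mixed on HFD, with 2 genes higher and 1 lower of 10, shares near those of all genes (13.3% higher and 12.7% lower). *Decr2*, a peroxisomal enzyme, was counted with the auxiliary enzymes and is not among these 10. *Hsd17b4*, the bifunctional enzyme for branched and very long chains and for bile acid side chains, stood at 403, 424, 463 and 409 CPM in Chow, 405, 386, 398 and 332 in Chow/FGFR4 KD, 547, 489.8, 530.4 and 518 in HFD, and 385, 432, 397 and 417 in HFD/FGFR4 KD. It rose by 0.30 on the log2 scale (SE 0.08, adjusted p 0.0260) and no HFD library reached down to the Chow libraries. *Acaa1b* went from 939.6 ± 231 to 1406 ± 319.7 CPM and was called higher (log2 change 0.58, 95% interval 0.07 to 1.10, adjusted p 0.142), but its groups overlapped and the call held in 3 of 8 fits that left out 1 library. The call was lost without Chow 1, Chow 2, Chow 4 (adjusted p 0.239, and unadjusted p over the threshold), HFD 1 or HFD 3, with log2 changes from 0.47 to 0.55. *Acaa1a* and *Acaa1b* are close copies, and each had its most matches in the other. Of the *Acaa1b* words 40.0% occur in other genes, and of the *Acaa1a* words 18.1%. With both summed as 1 gene the log2 change was 0.53 (adjusted p 0.129).

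*Hacl1* had the largest fall of the set on HFD. It encodes the peroxisomal lyase of α-oxidation, which shortens hydroxylated branched chains by a carbon, and stood at 273, 264, 309 and 304 CPM in Chow, 301, 246, 182 and 221 in Chow/FGFR4 KD, 198, 164, 142 and 194 in HFD, and 235, 209.6, 239 and 251 in HFD/FGFR4 KD. All 4 HFD libraries lay below all 4 Chow libraries, and the level fell by 39.6% (log2 change -0.73, SE 0.13, adjusted p 0.00393). Of the *Hacl1* transcript words 31.2% are shared with other genes, and Gm49387, with the most matches, had at most 3.08 CPM. The other peroxisomal genes, *Abcd3* (a transporter of CoA esters into peroxisomes), *Ehhadh* (a bifunctional enzyme), *Acaa1a*, *Scp2*, *Crot* (carnitine octanoyltransferase), *Acot8* and *Pecr* (trans-enoyl-CoA reductase), were not called, with log2 changes from -0.24 for *Pecr* to 0.17 for *Ehhadh*. *Scp2* shares 33.4% of its words with other genes, and the pseudogene Scp2-ps2, with the most matches, had at most 13.4 CPM.

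With KD on HFD, a smaller group of genes was lower. In HFD/FGFR4 KD against HFD, 8 of the 34 genes were called, 7 lower and 1 higher, where 3.14% of all genes were called, 186 of them lower (1.64% of all genes) and 170 higher. *Hadhb* was the only gene of the set at an adjusted p under 0.05, a threshold passed by 0.274% of all genes. The log2 change was below 0 for 31 of the 34 genes (49.3% of all genes), with a median of -0.22 against 0.00 over all genes tested, and 17 had an unadjusted p under 0.05 (11.0% of all genes). All HFD/FGFR4 KD libraries lay below all HFD libraries for 8 genes (3.33% of all genes) and above them for 1 (3.16%). By role, the genes called lower were 3 of 10 in the mitochondrial chain-length steps, 3 of 4 among auxiliary enzymes, 1 of 10 in the peroxisomal branch, and 0 of 7 and 0 of 3 among carriers and electron transfer genes. In the same order, the median log2 changes were -0.21, -0.37, -0.18, -0.28 and -0.03. All 7 carrier and activation genes were below 0, so the absence of calls does not set them apart from the other roles. The comparison shares the HFD libraries with the comparison of diets, so the values of both for a gene are not independent.

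**Figure D2:**
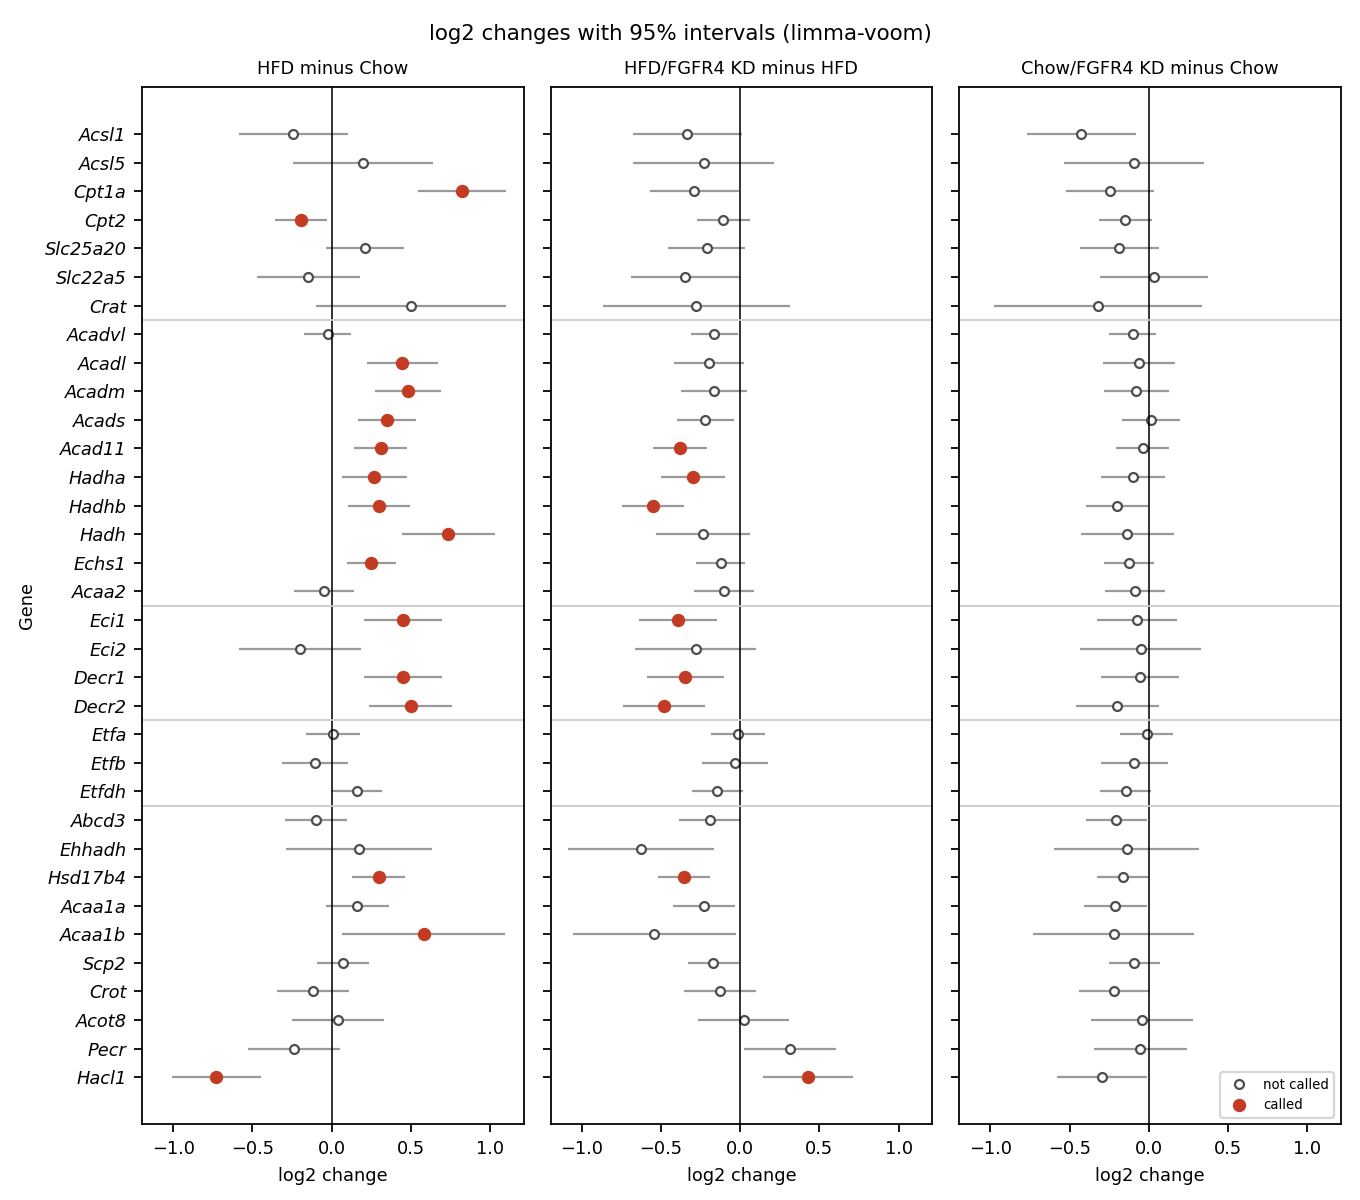
log2 changes (points) with 95% intervals (lines) from limma-voom for the 34 genes in HFD minus Chow, HFD/FGFR4 KD minus HFD and Chow/FGFR4 KD minus Chow, n = 4 libraries per group; filled points were called (p under 0.05 and adjusted p under 0.25). The filled points are 14 higher and 2 lower for diet, 7 lower and 1 higher for KD on HFD, and 0 for KD on chow.

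The trifunctional protein carries out the last 3 steps of the cycle on long chains, and the transcripts of both subunits were called lower. *Hadhb*, which holds the thiolase, stood at 169.9, 194, 184 and 166 CPM in Chow, 179, 162, 147 and 136 in Chow/FGFR4 KD, 221, 219, 226 and 210.0 in HFD, and 137, 171, 152 and 139 in HFD/FGFR4 KD. Every HFD/FGFR4 KD library was below every HFD library, and the level fell by 31.8% (log2 change -0.55, SE 0.09, 95% interval -0.75 to -0.36, adjusted p 0.0180). *Hadha*, with the hydratase and a dehydrogenase, was at 357 ± 25.8 CPM in HFD and 291 ± 22.7 CPM with KD (log2 change -0.30, SE 0.10, adjusted p 0.237), also without overlap. The *Hadha* call held in 2 of 8 fits that left out 1 library and was lost in edgeR's quasi-likelihood test. The ratio of *Hadhb* to *Hadha* counts, which needs no scaling between libraries, was 0.603 ± 0.0397 in Chow, 0.561 ± 0.0140 in Chow/FGFR4 KD, 0.614 ± 0.0333 in HFD and 0.515 ± 0.0243 in HFD/FGFR4 KD (mean ± SD, n = 4). It ranged from 0.480 to 0.537 with KD on HFD and from 0.581 to 0.659 in HFD. The ratio was looked at after the values were seen and was not tested. Of the *Hadhb* words 23.3% occur in other genes, and Gm13910, with the most matches, had at most 0.987 CPM.

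*Acad11* was the dehydrogenase with the smallest p. From 378 ± 30.5 CPM in HFD it went to 291 ± 19.3 CPM in HFD/FGFR4 KD and fell by 23.1% with no overlap of the libraries listed above (log2 change -0.38, SE 0.08, adjusted p 0.0577). The chain-length dehydrogenases *Acadvl*, *Acadl*, *Acadm* and *Acads* were not called. Their log2 changes were -0.16 for *Acadvl* (95% interval -0.31 to -0.01), -0.20 for *Acadl* (-0.42 to 0.02), -0.17 for *Acadm* (-0.38 to 0.04) and -0.22 for *Acads* (-0.40 to -0.04). The libraries of *Acadvl* and *Acads* did not overlap between the groups, with all KD libraries below, and their adjusted p-values were 0.398 and 0.344. *Hadh*, *Echs1* and *Acaa2* had log2 changes of -0.23, -0.12 and -0.10 and were not called.

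The auxiliary enzymes *Decr2*, *Eci1* and *Decr1* fell with KD on HFD. *Decr2* went from 212 ± 8.88 to 152 ± 20.5 CPM without overlap (log2 change -0.48, SE 0.12, adjusted p 0.116). *Eci1* went from 117 ± 5.16 to 90.4 ± 14.6 CPM (log2 change -0.39, SE 0.12, adjusted p 0.199) and *Decr1* from 195 ± 17.97 to 154 ± 26.4 CPM (-0.35, SE 0.12, adjusted p 0.249). For *Eci1* and *Decr1* the groups overlapped through HFD/FGFR4 KD 2, which was the highest of its group in 20 of the 34 genes. *Eci2* was not called (log2 change -0.28, 95% interval -0.67 to 0.10).

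In the peroxisomal branch *Hsd17b4* was called lower and *Hacl1* higher. *Hsd17b4* went from 521 ± 24.1 to 408 ± 20.9 CPM and fell by 21.8% without overlap (log2 change -0.35, SE 0.08, adjusted p 0.0790). *Hacl1* went from 175 ± 26.3 to 234 ± 17.5 CPM and was higher in 4 of 4 KD libraries than in any HFD library (log2 change 0.43, SE 0.13, adjusted p 0.218). *Ehhadh* had the largest negative value of the set, -0.63 (95% interval -1.09 to -0.17), but its libraries overlapped, between 207 and 321 CPM in HFD and between 133 and 221 CPM with KD, and it missed the threshold (adjusted p 0.283). *Acaa1b* was at -0.54 (adjusted p 0.426) and *Acaa1a* at -0.23 (adjusted p 0.369), and their sum at -0.50 (adjusted p 0.396). *Pecr* was at 0.31 (95% interval 0.03 to 0.60, adjusted p 0.401) and *Acot8* at 0.02 (-0.26 to 0.31).

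No carrier or activation gene was called with KD on HFD by limma-voom, edgeR or DESeq2. Of the 7, *Cpt1a* and *Slc22a5* had an unadjusted p under 0.05 in limma-voom (11.0% of all genes). *Cpt1a* was at 410.5 ± 47.9 CPM with KD and 501 ± 34.01 CPM without (log2 change -0.29, 95% interval -0.57 to -0.01, adjusted p 0.434). *Acsl1* was at -0.33 (-0.68 to 0.01) and *Slc22a5* at -0.35 (-0.69 to 0.00, adjusted p 0.449). *Cpt2*, *Slc25a20*, *Acsl5* and *Crat* lay between -0.28 and -0.11. The electron transfer genes gave values of -0.01 for *Etfa* (-0.18 to 0.16), -0.03 for *Etfb* (-0.24 to 0.18) and -0.14 for *Etfdh* (-0.30 to 0.02).

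**Figure D3:**
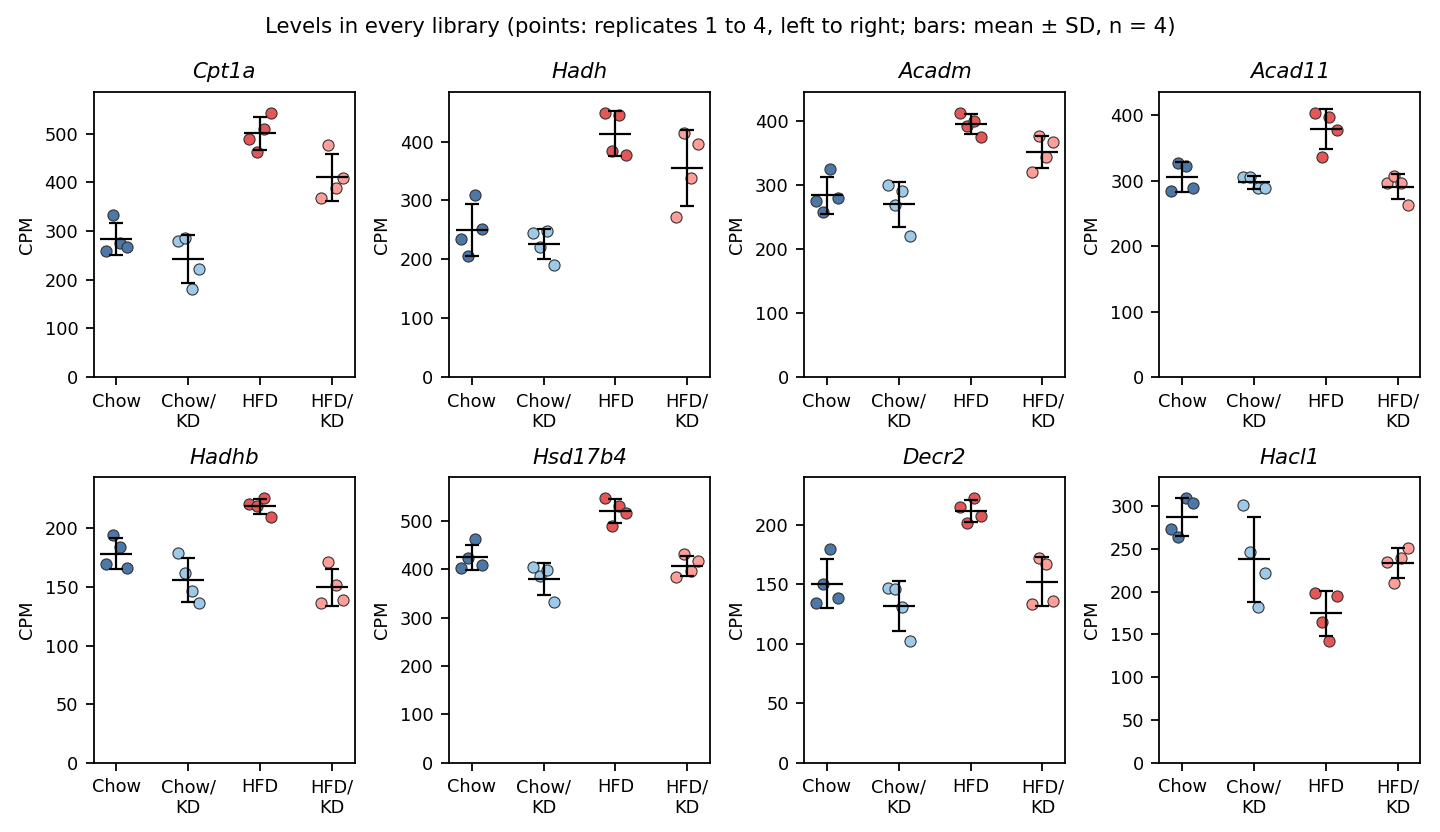
Levels in CPM of 8 genes in every library by group (points, replicates 1 to 4 from left to right; horizontal bar and whiskers, mean ± SD, n = 4; axes start at 0). *Cpt1a*, *Hadh* and *Acadm* are higher on HFD with and without KD, *Acad11*, *Hadhb*, *Hsd17b4* and *Decr2* are highest in HFD without KD, and *Hacl1* is lowest there.

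*Acad11*, *Hadhb* and *Hsd17b4* kept their calls in all 8 fits that left out 1 of the libraries compared, with adjusted p-values up to 0.209, 0.0788 and 0.206. *Decr2* kept its call in 5, *Eci1* and *Hacl1* in 3 each, and *Hadha* and *Decr1* in 2 each. Over these fits the log2 changes ran from -0.54 to -0.42 for *Decr2*, from -0.50 to -0.34 for *Eci1* and from 0.33 to 0.49 for *Hacl1*. They ran from -0.34 to -0.25 for *Hadha* and from -0.46 to -0.29 for *Decr1*. *Acad11*, *Hadhb* and *Hsd17b4* were also the only genes of the set called without HFD/FGFR4 KD 1, the library that stood apart, when the median of the set was -0.17 and 1.21% of all genes were called. They were likewise the only ones called without HFD 3 (0.784% of all genes) and without HFD/FGFR4 KD 4 (0.836%). In edgeR's quasi-likelihood test these 3 and *Decr2* were called (2.17% of all genes).

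**Figure D4:**
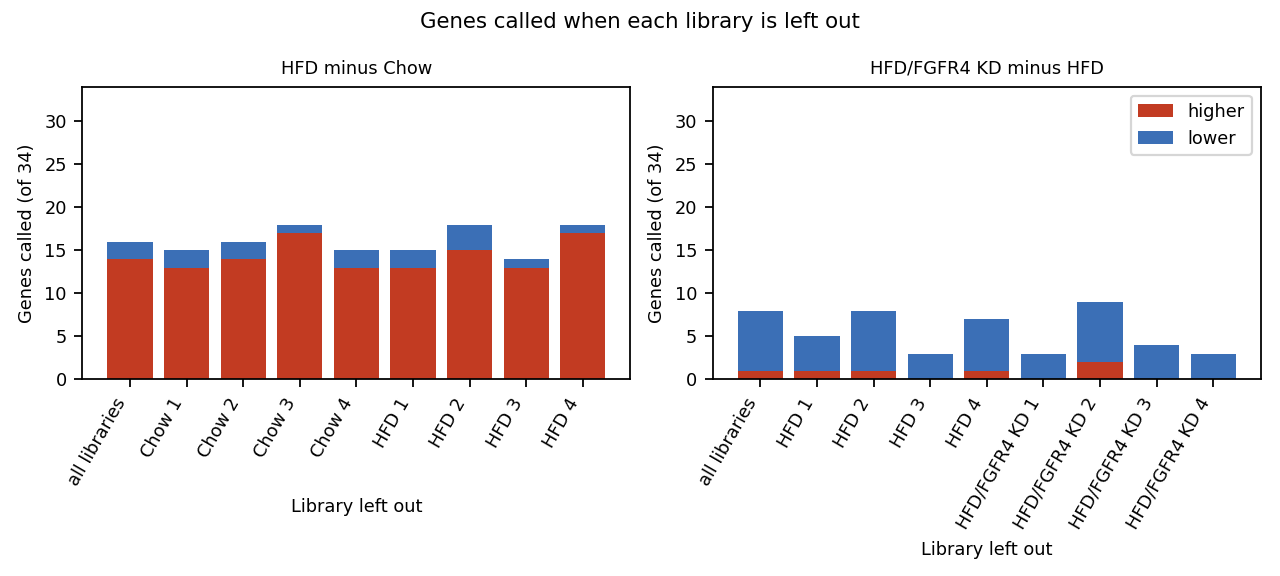
Number of the 34 genes called higher (red) or lower (blue) with all libraries and with each of the 8 libraries of a comparison left out, for HFD minus Chow and HFD/FGFR4 KD minus HFD. The count stays between 14 and 18 for diet and between 3 and 9 for KD on HFD. Of all genes, 21.3% to 26.6% were called for diet with a library left out, and 0.784% to 5.33% for KD on HFD.

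On chow, KD gave no call. Of the 34 genes 0 were called in Chow/FGFR4 KD against Chow by limma-voom, edgeR or DESeq2, where 1 of all genes (0.00883%), *Fgfr4* itself, was called by limma-voom. 5 genes had an unadjusted p under 0.05 (4.58% of all genes), namely *Acsl1*, *Hadhb*, *Abcd3*, *Acaa1a* and *Hacl1*, each below 0 and each with an adjusted p of 0.976. *Acsl1* was at 1283 ± 58.9 CPM in Chow and 978 ± 226 CPM with KD, with a log2 change of -0.43 (95% interval -0.77 to -0.08), and *Hadhb* was at -0.20 (-0.40 to 0.00). The value was below 0 for 32 genes (49.1% of all genes), with a median of -0.11. All Chow/FGFR4 KD libraries lay below all Chow libraries for 2 genes, *Acsl1* and *Scp2*, and above them for 0. Of all 11324 genes tested, 134 lay below and 151 above. Chow/FGFR4 KD 4 was the lowest of its group in 22 of the 34 genes, and 8 genes changed sign without it.

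The difference between the KD effects on HFD and on chow was tested directly, and 0 of the 34 genes were called (0.0353% of all genes) by limma-voom or edgeR, while 3 had an unadjusted p under 0.05 in limma-voom (6.76% of all genes). These were *Hacl1* (difference 0.72, 95% interval 0.32 to 1.12, adjusted p 0.491), *Acad11* (-0.34, -0.58 to -0.11, adjusted p 0.575) and *Hadhb* (-0.35, -0.63 to -0.08, adjusted p 0.648). DESeq2 called *Hacl1* (0.70, adjusted p 0.145). A diet dependence of the KD effect was not shown for any gene of the set by limma-voom.

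In KD mice, HFD against chow gave 5 genes higher and 2 lower of 34, where 20.2% of all genes were called (10.1% in each direction), and 3 passed an adjusted p under 0.05 (3.10% of all genes). *Cpt1a* rose by 0.78 (SE 0.13, adjusted p 0.00528), *Hadh* by 0.64 (adjusted p 0.0217), *Acadm* by 0.39 (adjusted p 0.0406), *Acadl* by 0.31 (adjusted p 0.121) and *Echs1* by 0.25 (adjusted p 0.0733), all on the log2 scale. *Slc22a5* was lower by a log2 change of -0.53 (adjusted p 0.0943) and *Eci2* by -0.43 (adjusted p 0.197). The *Acadl* call was lost without Chow/FGFR4 KD 4 or HFD/FGFR4 KD 2, and the *Eci2* call in 5 of 8 fits that left out 1 library. Of the *Slc22a5* words 37.8% occur in other genes, and *Slc22a21*, with the most matches, had at most 0.903 CPM. In KD mice the diet gave 0 calls among the auxiliary enzymes in the direction higher and 0 in the peroxisomal branch, and the medians of these lists were 0.15 and 0.05.

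Other genes of the pathway were described with a list of 32, of which all were tested. On HFD against Chow, 10 were called higher and 6 lower, where 13.3% and 12.7% of all genes were. Of these, 5 of the higher and 0 of the lower genes passed an adjusted p under 0.05 in limma-voom (4.55% and 4.65% of all genes). *Abcd2*, a transporter of very long chains into peroxisomes, rose by 2.77 on the log2 scale (SE 0.79, adjusted p 0.0370), *Acat1*, a mitochondrial thiolase of ketone and isoleucine metabolism, by 0.50 (adjusted p 0.0317), *Acad12* by 0.73 (adjusted p 0.0401) and *Acot4*, a peroxisomal thioesterase, by 1.09 (adjusted p 0.0428). With KD on HFD, 3 of the 32 were called, 1 higher and 2 lower, where 3.14% of all genes were called. *Slc27a2*, a transporter and synthetase of very long chains, was at -0.44 (adjusted p 0.190), and *Acsl3*, a long-chain synthetase, at 1.04 (adjusted p 0.177). Of 9 regulators, *Ppara* rose on HFD from a mean of 94.8 to 143 CPM (log2 change 0.61, adjusted p 0.0119), and *Hnf4a* was lower (-0.44, adjusted p 0.108). With KD on HFD 0 of the 9 were called by limma-voom, edgeR or DESeq2. An unadjusted p under 0.05 in limma-voom was found for 0 (11.0% of all genes). *Ppara* was then at -0.26 (95% interval -0.54 to 0.03).

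Markers of other cells differed between the groups. On HFD against Chow all 8 macrophage markers were called higher, where 13.3% of all genes were. Their summed level went from between 64.2 and 72.8 CPM in Chow to between 121 and 212 CPM in HFD, against 96.7 to 173 CPM in HFD/FGFR4 KD. In Chow/FGFR4 KD this sum lay between 80.2 and 108 CPM, above every Chow library. With KD on chow all 8 macrophage markers were above 0 (median log2 change 0.51) and 0 were called. The summed stellate cell markers went from 103 to 142 CPM in Chow to 169 to 284 CPM in HFD and 120 to 190.0 CPM in HFD/FGFR4 KD. On HFD 4 of the 6 were called higher (13.3% of all genes). With KD on HFD 0 of 8 macrophage and 0 of 6 stellate cell markers were called by limma-voom (3.14% of all genes). Of each list 1 had an unadjusted p under 0.05 (11.0% of all genes). Of 6 endothelial markers 3 were called higher on HFD (13.3% of all genes). Of 10 hepatocyte markers 4 were called lower (12.7% of all genes), *Tat*, *Cps1*, *Serpina1a* and *Apoa1*. The summed hepatocyte level had means of 69944 CPM in Chow, 69768 CPM in HFD and 72290 CPM in HFD/FGFR4 KD. With KD on HFD 2 hepatocyte markers were called, 1 higher and 1 lower (3.14% of all genes). Of the 10, 8 were above 0 (median log2 change 0.22), and 5 had an unadjusted p under 0.05 in limma-voom (11.0% of all genes). Of 7 adipocyte markers 3 were tested, and *Adipoq*, *Plin1*, *Lep* and *Retn* did not pass the filter. Of the 3, *Cfd* and *Plin4* were called. Both were higher on HFD (13.3% of all genes) and lower with KD on HFD (1.64% of all genes). The third, *Car3*, was at -0.30 on HFD and was not called, and the summed level had means of 3632 CPM in Chow, 3001 CPM in HFD and 2333 CPM in HFD/FGFR4 KD, while *Lep* was at 0 and *Plin1* and *Retn* at or under 3 counts in every library. Of 13 clock genes tested, 11 were called on HFD, 6 higher and 5 lower (13.3% and 12.7% of all genes), and 5 with KD on HFD (3.14% of all genes). *Dbp*, a clock output gene, had a median of 1.84 CPM in Chow, 44.5 CPM in HFD and 17.8 CPM in HFD/FGFR4 KD, and *Arntl* 18.5, 4.92 and 14.9 CPM. The part of these cells, or of the time of collection, in the changes of the oxidation genes was not tested.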

How the data were processed

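Liver RNA from 16 mice, 4 per group by the labels, was sequenced by the authors. The authors pseudoaligned reads with kallisto and summed transcripts to genes with tximport, so the deposited values are estimated counts. Of these, 7.85% to 11.1% per library were not whole. Processing notes name fastp, kallisto and GRCm38 with no versions. The labels give the KAPA mRNA HyperPrep kit, whereas the study's methods describe another assay, so the library chemistry is uncertain. Counts were used unrounded in limma-voom (limma 3.58.1, R 4.3.3) and rounded for DESeq2 1.42.0. Genes under 1 CPM in more than 4 libraries were left out. CPM used TMM factors (edgeR 4.0.16), from 0.836 to 1.17. The model held a mean per group over all 16 libraries, and p-values were adjusted over the 11324 genes tested.

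The genes of the set and all lists were chosen with earlier results of these data known. Every gene of the set could be named. Values in each library are given for those called at an adjusted p under 0.05 in KD on HFD or in HFD against Chow and for 4 acyl-CoA dehydrogenases. Of the other pathway genes and regulators, those past that threshold are named, *Ppara* among them, except where a result is not reported here. The other 3 named (*Slc27a2*, *Acsl3*, *Hnf4a*) and the promoter patterns were chosen after values were seen. Longer patterns were also searched and are not reported here.

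Shared sequence was measured as 31-base words of GENCODE transcripts. Each share counts words found in any other gene, and the gene named beside it had the most matches over its transcripts. The share of that gene alone was not measured. The pipeline was tested on simulated counts. The 24 pairs of libraries within groups differed by at least 7.59 (chi-square divided by its degrees of freedom, 7405 genes), so none was a copy. Each library is a separate mouse as far as the labels tell, and the total counts given above set the precision of each value. As alternatives, DESeq2, edgeR's quasi-likelihood test, 2 other filters, 3 other scalings, quality weights, a stricter threshold, a replicate block, fits of the compared groups alone, *Acaa1a* and *Acaa1b* summed and each library left out were run. Added after seeing the data was the removal of Gm42418 and Lars2. Python 3.11.15 and pandas 2.3.3 were used for summaries and figures.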

Additional observations from a re-analysis of the deposited data

Results flagged for a closer look

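In 3 of 140 gene and group combinations, 1 library lay far from the other 3 of its group by Dixon's test, where chance flags about 1 in 20. *Slc25a20* was lowest in HFD 4 at 94.5 CPM, against 109.7 to 111.9 CPM in the other HFD libraries. *Etfb* was highest in HFD 2 at 210.0 CPM, against 163.2 to 168.6 CPM. *Acaa1a* was highest in Chow/FGFR4 KD 3 at 153.9 CPM, against 129.4 to 132.9 CPM in the rest of that group.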

How the results depend on the processing

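With KD on HFD, 8 genes of the set were called, where 3.14% of all genes were. The count was 1 at an adjusted p under 0.05 (0.274% of all genes) and 4 with edgeR's quasi-likelihood test (2.17%). It was 2 with scaling by library totals (1.01%) and 5 with the replicate block (2.29%). The other alternatives with all libraries gave from 6 to 10 (1.32% to 6.85% of all genes). Leaving out each library gave from 3 to 9 (0.784% to 5.33% of all genes). On chow the count was 0 in every alternative run, 0 to 0 with a library left out. For HFD against Chow, 16 genes were called and the count ran from 14 to 21 (21.3% to 38.0% of all genes). It was 14 to 18 with a library left out (21.3% to 26.6%). At an adjusted p under 0.05 it was 12 (4.55% of all genes higher and 4.65% lower). With scaling by library totals *Cpt2* reversed to 0.0879 and 9 of the 18 uncalled genes changed sign. The median over all genes was then 0.29. For HFD in KD mice, 7 were called (20.2% of all genes), 3 at an adjusted p under 0.05 (3.10%), and 6 to 9 with a library left out (10.5% to 22.3%). The difference between the KD effects gave 0 (0.0353% of all genes), or 1 with DESeq2 (0.477%), and 0 to 0 with a library left out. No gene called in the other comparisons reversed. The replicate numbers did not pair the libraries, since deviations of same-numbered HFD and HFD/FGFR4 KD libraries correlated from -0.291 to 0.240, and 1 library decided calls as given in the report. The cause of these movements was not tested. With 4 libraries per group, the 95% intervals set how small a change could be seen, and the depth gave at least 30 counts for each gene of the set. Genes with shared transcript sequence remain uncertain.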
